A study of Homo sapiens with 6 samples.

Results

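The genes described here are 35 human genes of the amino acid response and the unfolded protein response. The list of ATF4 and endoplasmic reticulum stress genes was drawn up with earlier results of these data known. Shares of members set beside shares of all genes are therefore descriptive and are no independent test. The members were found as all probe sets that the platform annotation assigns to 1 listed gene, which gave 74 probe sets. All 35 were measured, of 19775 genes on the array. The brightest on average of its single-gene probe sets stood for each gene. The median of all probe sets was 6.00 on the log2 scale, and 34 members lay at or above it; VLDLR lay below and is treated as dim.

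The study measured RNA of K562 cells, an established line from chronic myeloid leukaemia, on 6 Affymetrix HG-U133 Plus 2.0 arrays. Its title names PRAME, a cancer-testis antigen and repressor of retinoic acid receptor signalling, and the question was how the response to all-trans retinoic acid (ATRA) depends on it. All cells were nucleofected with up to 200 nM of RNA, either an siRNA labelled RNAi8 (3 arrays) or scrambled RNA (3 arrays), and 24 h later received ATRA or its DMSO control. Experiments 1 and 3 were labelled ATRA and experiment 2 DMSO, each with 1 RNAi and 1 scrambled array, so that the treatment and the experiment cannot be told apart.

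As background, cells that lack an amino acid or accumulate misfolded protein in the endoplasmic reticulum phosphorylate the translation factor eIF2, which slows protein synthesis but favours translation of the transcription factor ATF4. ATF4 then switches on genes for amino acid uptake and synthesis, tRNA charging and growth restraint. The sensors IRE1 and ATF6 act in parallel, through spliced XBP1 and cleaved ATF6, on chaperones such as BiP. Because ATF4 and XBP1 are controlled after transcription, an expression array reads their messages and their targets and not their activity.

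PRAME, the gene of the title, had log2 levels of 12.13, 12.14 and 12.10 on the RNAi arrays of experiments 1, 2 and 3, against 13.00, 12.99 and 12.70 on the scrambled arrays. The RNAi arrays lay below all scrambled arrays. Array medians lay between 5.96 and 6.02. Both arrays of experiment 3 stood apart: they correlated at 0.979 to 0.982 with the other 4, which correlated among themselves at 0.996 or more. The 3′ minus 5′ gap of the actin control probe sets, a measure of RNA integrity and labelling, was 2.98 and 3.36 log2 units there (RNAi, then scrambled), while the remaining arrays had 0.63 to 0.92. The GAPDH gap was 1.20 and 0.74 in experiment 3 and 0.03 to 0.08 elsewhere. All 9 measured erythroid and megakaryocytic markers lay at or above the median of all probe sets, among them GATA1 at 8.86 and HBZ at 12.03. Of the T and NK cell markers 5 of 6 lay below it, of the stromal markers 3 of 5, of the B cell markers 2 of 4 and of the monocyte and granulocyte markers 3 of 5. The epithelial markers lay at or above it in 4 of 5, with the keratin KRT18 at 11.95.

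Promoter sequence was available for 31 of the 35 members, as 44 windows from 250 bases before to 50 bases after a RefSeq start (GRCh38.p14). INHBE, PSPH, SHMT2 and SLC7A11 had no entry. The 4 motifs searched on both strands were the endoplasmic reticulum stress element (CCAAT, 9 bases of any kind, CCACG), its short form ERSE-II (ATTGG, 1 base, CCACG), the core of the C/EBP-ATF composite element (TGATG, 1 base, AA) and the unfolded protein response element core (TGACGTG). The stress element was in 6 member windows (CALR, CRELD2, HSP90B1, HSPA5, PDIA6 and XBP1) and in 27 of all 35116 windows, or 0.077%. ERSE-II was in HERPUD1 and SDF2L1 and in 0.054% of all windows. The composite core was in ASNS, CEBPG, CHAC1, HERPUD1, SLC3A2 and SLC7A1 and in 3.62% of all windows. The fourth motif was in 0 member windows and in 1.97% of all. A match describes these letters and is no measure of binding.

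The following stretches are shown because they carry these motifs in members that the results below describe. Capitals mark the stress element or ERSE-II in the first 4, and also the composite core that precedes ERSE-II in HERPUD1, and they mark the composite core in the last 3. Each is written 5′ to 3′ on the gene's strand.
HSPA5, chr9:125241379-125241421, minus strand: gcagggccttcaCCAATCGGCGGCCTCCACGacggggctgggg
HERPUD1, chr16:56931954-56932047, plus strand: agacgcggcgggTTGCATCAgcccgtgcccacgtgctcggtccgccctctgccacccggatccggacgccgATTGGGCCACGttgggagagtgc
XBP1, chr22:28800591-28800633, minus strand: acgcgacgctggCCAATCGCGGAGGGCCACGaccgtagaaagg
HSP90B1, chr12:103930204-103930351, plus strand: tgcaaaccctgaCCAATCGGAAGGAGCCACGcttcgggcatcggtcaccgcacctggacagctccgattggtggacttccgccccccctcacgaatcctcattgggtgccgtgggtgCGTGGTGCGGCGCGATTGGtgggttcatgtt
ASNS, chr7:97872457-97872488, minus strand: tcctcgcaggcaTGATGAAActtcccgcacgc
CEBPG, chr19:33374059-33374090, plus strand: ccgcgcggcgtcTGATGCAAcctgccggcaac
CHAC1, chr15:40953250-40953281, plus strand: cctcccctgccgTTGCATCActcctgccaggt
In the window searched, HSPA5 and XBP1 carry a single exact match to the stress element, in the same orientation and close before the start. Variants of the motif were not searched. HSP90B1 carries 2 of opposite orientation, and HERPUD1 carries both kinds of motif.

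**Figure D1:**
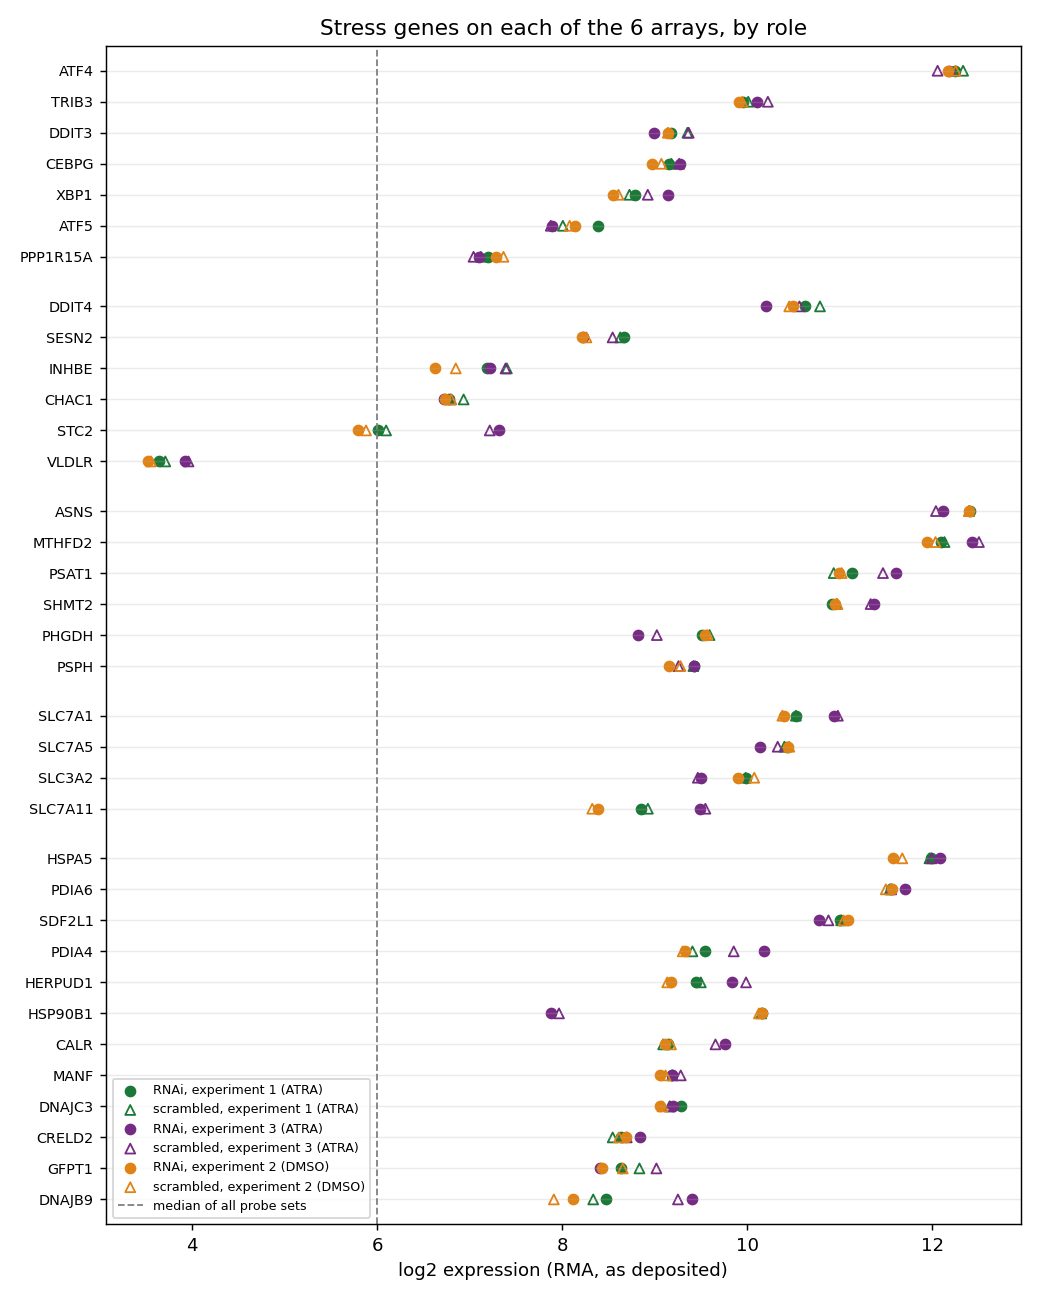
Log2 expression (horizontal axis) of the 35 genes on each of the 6 arrays, grouped by role from top to bottom; each point is 1 array. Points of experiment 3 lie apart for many genes. HSP90B1 lies farthest, at 7.88 and 7.97 on the probe set used, against 10.13 to 10.16 elsewhere. RNAi and scrambled points of 1 experiment lie close together. Levels of different genes come from different probe sets and are not comparable.

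The RNAi arrays were first set against the scrambled arrays, to ask whether the stress genes changed with the siRNA. None passed the test: 0 of 35 members and 0 of 19775 genes (0%) had an adjusted p under 0.05 by limma. At an unadjusted p under 0.05, 2 members were called, INHBE and GFPT1, with 1.29% of all genes. With the experiment as a block, which pairs the arrays of each experiment, 5 genes passed (0.0253%), among them 0 members. At an unadjusted p under 0.05 the blocked fit called 6 members (17.1%), against 6.41% of all genes: DNAJB9 and PDIA4 were higher and GFPT1, INHBE, DDIT3 and DDIT4 lower. The member means lay above 0 for 13 and below 0 for 22, with a median of -0.02, against 52.9% above 0 and a median of 0.01 over all genes. Within experiments, 25 members in experiment 1, 29 in experiment 2 and 15 in experiment 3 differed by less than 0.1 between RNAi and scrambled. The median absolute difference of the members was 0.06, 0.06 and 0.11 in experiments 1, 2 and 3, against 0.07, 0.07 and 0.10 over all genes.

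Among the transcription factors and their feedback genes, ATF4 itself had 12.24, 12.17 and 12.18 on the RNAi arrays of experiments 1, 2 and 3, against 12.33, 12.25 and 12.06 on the scrambled arrays. It was lower with RNAi in experiments 1 and 2 and higher in experiment 3, and its mean difference was -0.02 (95% interval with the experiment as a block -0.13 to 0.10). DDIT3, which encodes the stress factor CHOP, had 9.17, 9.14 and 8.99 on the RNAi arrays, against 9.35, 9.14 and 9.37 on the scrambled arrays. It was lower with RNAi in both ATRA experiments and equal at these digits in the DMSO experiment. The mean was -0.18 ± 0.12 (SE, n = 3 against 3, adjusted p = 1, limma), with a blocked 95% interval of -0.34 to -0.03 (adjusted p = 0.771, limma). That mean was -0.28 with either array of experiment 2 left out, -0.11 without the RNAi array of experiment 3 and -0.09 without that experiment. ATF5, a factor related to ATF4, had 8.39, 8.14 and 7.89 on the RNAi arrays, against 8.01, 8.08 and 7.88 on the scrambled arrays. Its mean difference of 0.15 ± 0.15 (SE, adjusted p = 1, limma) rested on experiment 1, where it was 0.38, and was 0.06 and 0.01 in experiments 2 and 3. Without the RNAi array of experiment 1 it was -0.01. Its blocked 95% interval with all arrays was -0.02 to 0.32 (adjusted p = 0.784, limma). TRIB3, a pseudokinase that restrains ATF4, lay lower with RNAi in all 3 experiments by 0.12 or less. CEBPG, a partner of ATF4, XBP1 and PPP1R15A, the phosphatase subunit that reverses eIF2 phosphorylation, had mean differences of -0.04, 0.07 and 0.02.

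On their brightest probe sets, the 6 genes of growth restraint and secreted signals all had means below 0 with RNAi. The median was -0.10, and 0 passed the test. INHBE, a subunit of the activin and inhibin hormones, had 7.19, 6.62 and 7.22 on the RNAi arrays of experiments 1, 2 and 3, against 7.40, 6.85 and 7.39 on the scrambled arrays. Each RNAi array lay below its own scrambled array, by 0.22, 0.23 and 0.17, although the groups overlapped because the DMSO experiment was lower on both. The mean was -0.20 ± 0.07 (SE, 95% interval -0.37 to -0.04), or 86.9% of the scrambled level, with an unadjusted p of 0.0257 and an adjusted p of 1 by limma. With the experiment as a block its interval was -0.34 to -0.07 and its adjusted p by limma 0.771. CHAC1, an enzyme that degrades glutathione, had differences of -0.16, -0.07 and -0.07 in experiments 1, 2 and 3 and a mean of -0.10 ± 0.07 (SE, adjusted p = 1, limma), which was -0.06 without the scrambled array of experiment 1. DDIT4, an inhibitor of the growth kinase mTORC1, had 10.62, 10.49 and 10.20 on the RNAi arrays, against 10.79, 10.45 and 10.56 on the scrambled arrays. It was lower with RNAi in both ATRA experiments and 0.04 higher in the DMSO experiment. The mean was -0.16 ± 0.16 (SE, adjusted p = 1, limma), with a blocked 95% interval of -0.31 to -0.01 (adjusted p = 0.771, limma). With 1 array or 1 experiment left out that mean ran from -0.26 without experiment 2 to -0.01 without the RNAi array of experiment 3. SESN2, a leucine sensor that also acts on mTORC1, differed by -0.32 in experiment 3 and by 0.04 and -0.04 in experiments 1 and 2. STC2, a secreted glycoprotein, and the dim lipoprotein receptor VLDLR had means of -0.02 and -0.05. A second probe set of STC2, at a mean level of 6.34 against 6.39, was higher with RNAi in each experiment, by 0.29 on average. The second probe set of SESN2 gave a mean of 0.04, so the common direction of the 6 genes depended on the probe set.

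Enzymes and transporters moved little with RNAi. ASNS, the asparagine synthetase that serves as a classic readout of ATF4, had 12.41, 12.40 and 12.12 on the RNAi arrays, against 12.40, 12.39 and 12.04 on the scrambled arrays. The RNAi array was higher in each experiment by at most 0.08, and the mean was 0.03 (blocked 95% interval -0.07 to 0.13). In the serine pathway PHGDH, the entry enzyme, averaged -0.11, PSAT1, the aminotransferase, 0.10 and PSPH, the phosphatase, 0.02. The mitochondrial one-carbon enzymes SHMT2 and MTHFD2 averaged -0.01 and -0.07. All 4 transporters had means just below 0. SLC7A11, the cystine and glutamate exchanger, was at -0.03 and SLC7A5, which carries large neutral amino acids, at -0.06. SLC3A2, the heavy chain of both, was at -0.05 and SLC7A1, which carries arginine and lysine, at -0.01.

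Among the 12 genes of endoplasmic reticulum folding, 7 means lay above 0 and 5 below. HSPA5, which encodes the chaperone BiP, had 11.99, 11.58 and 12.08 on the RNAi arrays, against 11.97, 11.68 and 11.99 on the scrambled arrays, a mean difference of 0.00 at these digits. DNAJB9, a cochaperone of BiP, had 8.47, 8.12 and 9.40 on the RNAi arrays, against 8.34, 7.91 and 9.25 on the scrambled arrays. It was higher with RNAi in each experiment, by 0.16 on average (blocked 95% interval 0.04 to 0.28, adjusted p = 0.771 by limma), but the groups overlapped and a second probe set went the other way in experiment 2 at -0.13. The disulfide isomerase PDIA4 was also higher with RNAi in each experiment, by 0.13, 0.03 and 0.32. The means of CALR, CRELD2, DNAJC3, HERPUD1, HSP90B1, MANF, PDIA6 and SDF2L1 ran from -0.05 for HERPUD1 to 0.11 for CRELD2. GFPT1, the first enzyme of the hexosamine pathway and a target of spliced XBP1, had 8.63, 8.43 and 8.41 on the RNAi arrays, against 8.84, 8.66 and 9.02 on the scrambled arrays. All 3 RNAi arrays lay below all 3 scrambled arrays. Its mean was -0.35 ± 0.12 (SE), or 78.7% of the scrambled level, with an adjusted p of 1 by limma and 0.59 with the experiment as a block. The size came partly from experiment 3, where it was -0.61, and it was -0.21 without that experiment. Its 3 other probe sets gave mean differences of 0.04, -0.22 and -0.22, and the mean over all 4 gave -0.19.

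Counted over single experiments, RNAi was above scrambled in all 3 for 6 members (17.1%): ATF5, ASNS, DNAJB9, PDIA4, PDIA6 and CRELD2. Over all genes that share was 13.1%. RNAi was below scrambled in all 3 for 7 members (20%): TRIB3, CHAC1, INHBE, VLDLR, PHGDH, MTHFD2 and GFPT1, against 11.9% of all genes. These counts rest on the brightest probe set of each gene. Of the 20 members with at least 2 probe sets at or above the median of all, 12 had RNAi means of mixed sign. ATF5, TRIB3, MTHFD2 and GFPT1 were among them, and the other probe set of MTHFD2 was above scrambled in all 3 experiments, by 0.10 on average. A design of 3 against 3 arrays, taken as unpaired, cannot give a two-sided exact permutation p under 0.10 for a single gene. Pairing by experiment allows fewer arrangements, so the smallest p is then larger.

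**Figure D2:**
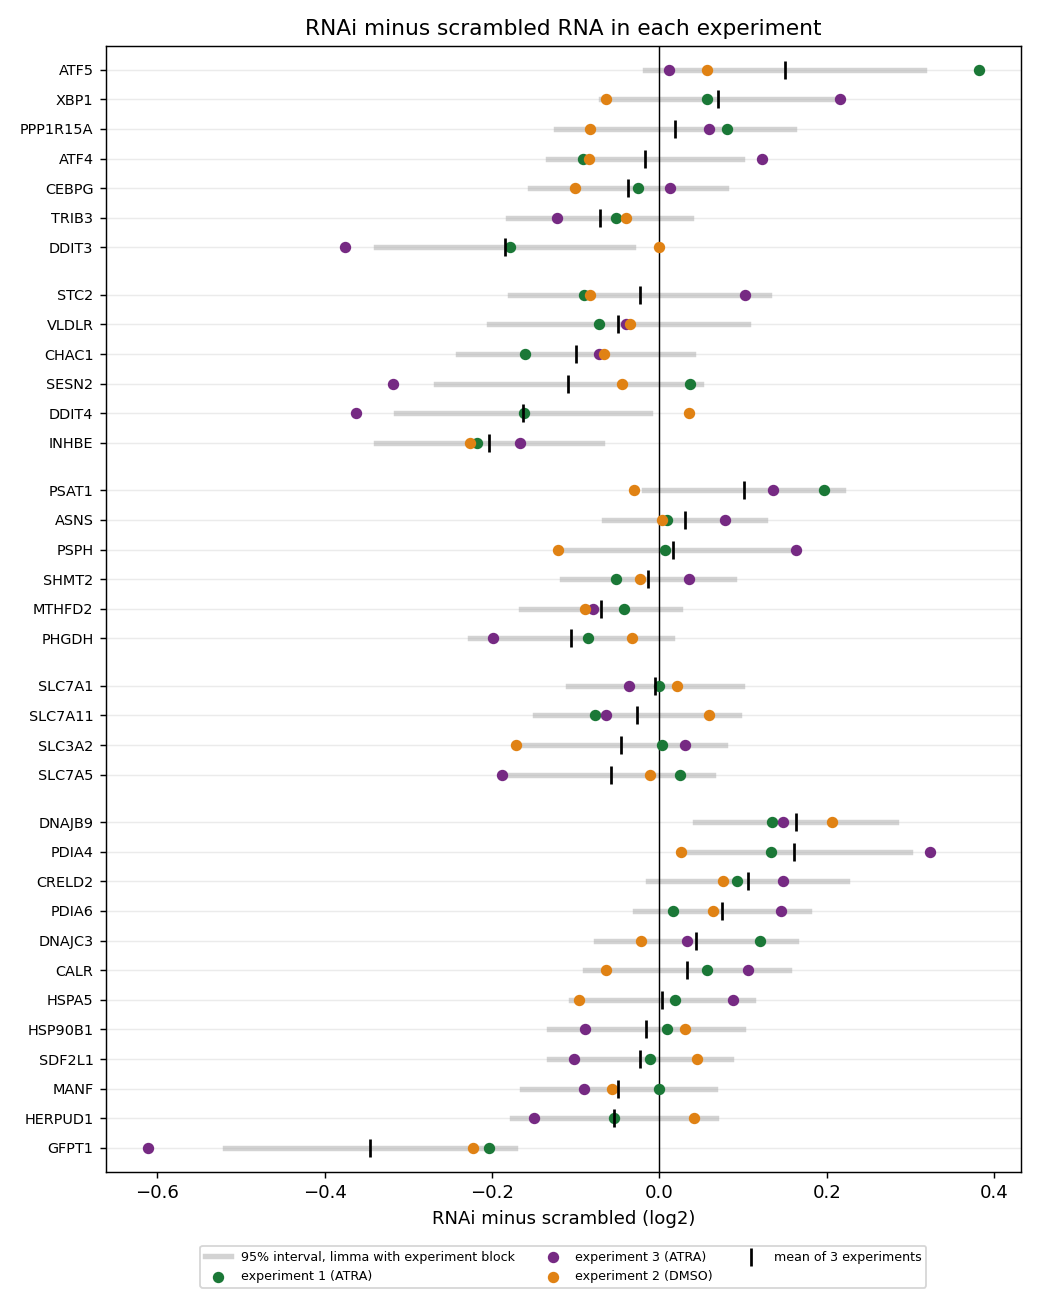
RNAi minus scrambled log2 difference (horizontal axis) of each gene in experiments 1, 2 and 3 (points), with the mean (black tick) and the 95% interval of the limma fit with the experiment as a block (grey bar). Most points lie within 0.1 of 0; INHBE and GFPT1 have all 3 points below 0 and DNAJB9 and PDIA4 all 3 above, and 0 members passed the test after adjustment.

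ATRA was then set against DMSO, with the mean of the 2 arrays of an experiment as 1 value, 2 ATRA experiments against 1 DMSO experiment. Most members had the higher value under ATRA, 26 of 35 (74.3%), against 47.8% of all genes, and the median difference was 0.16 against -0.01 over all genes. None passed the test: 0 of 35 members and 0 of 19775 genes (0%) by limma, with 1 member (INHBE) and 1.19% of all genes at an unadjusted p under 0.05. With arrays as values and the experiment as a random block, 2 genes passed (0.0101%), among them 0 members. All 4 ATRA arrays lay above both DMSO arrays for 15 members (42.9%), against 13.5% of all genes. They lay below both for 3 members (8.57%), PPP1R15A, SLC7A5 and SDF2L1, against 13.2%.

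The order of the arrays was clear for a few genes. INHBE had 7.19 and 7.40 in experiment 1 and 7.22 and 7.39 in experiment 3 under ATRA (RNAi, then scrambled), against 6.62 and 6.85 under DMSO. The ATRA experiments were alike and the DMSO arrays lay below all 4, with a difference of 0.56 ± 0.15 (SE, 95% interval 0.14 to 0.99, unadjusted p = 0.0218, adjusted p = 0.995 by limma). HSPA5 had 11.99, 11.97, 12.08 and 11.99 on the same ATRA arrays, against 11.58 and 11.68 under DMSO, and the groups did not overlap either. Its difference was 0.38 ± 0.19 (adjusted p = 0.995, limma). SLC7A11 had 8.85 and 8.93 in experiment 1 and 9.48 and 9.55 in experiment 3, against 8.38 and 8.33 under DMSO. Both ATRA experiments lay above DMSO but far from each other, and the difference was 0.85 ± 0.39 (adjusted p = 0.995, limma). It was 0.47 with the mean of all probe sets of the gene, and the 2 other probe sets alone gave 0.58 and -0.01.

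Experiments 1 and 3 are both set against experiment 2 and so share its arrays, and their values are given side by side. DNAJB9 lay above DMSO by 0.39 in experiment 1 and by 1.31 in experiment 3, with a mean of 0.85 ± 0.48 (SE). HERPUD1, a component of endoplasmic reticulum degradation, did so by 0.32 and 0.76 (mean 0.54 ± 0.35), XBP1 by 0.18 and 0.46, and PDIA4 by 0.16 and 0.70. STC2 lay above DMSO by 0.21 in experiment 1 and by 1.43 in experiment 3 (mean 0.82 ± 0.55), with DMSO levels of 5.80 and 5.88, under the median of all probe sets. The adjusted p of DNAJB9, HERPUD1 and STC2 was 0.995 by limma, and HERPUD1 was at 0.25 with its second, dim probe set averaged in. Other members parted between the experiments. ATF4 was at 0.08 in experiment 1 and -0.09 in experiment 3, ATF5 at 0.09 and -0.23, DDIT4 at 0.23 and -0.09, ASNS at 0.01 and -0.32, SLC3A2 at -0.01 and -0.51 and CALR, a lectin chaperone, at -0.03 and 0.57. PPP1R15A lay below DMSO in experiment 1 and in experiment 3, at -0.16 and -0.25. Experiment 3 less experiment 2 lay above 0 for 24 members, against 48.8% of all genes.

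**Figure D3:**
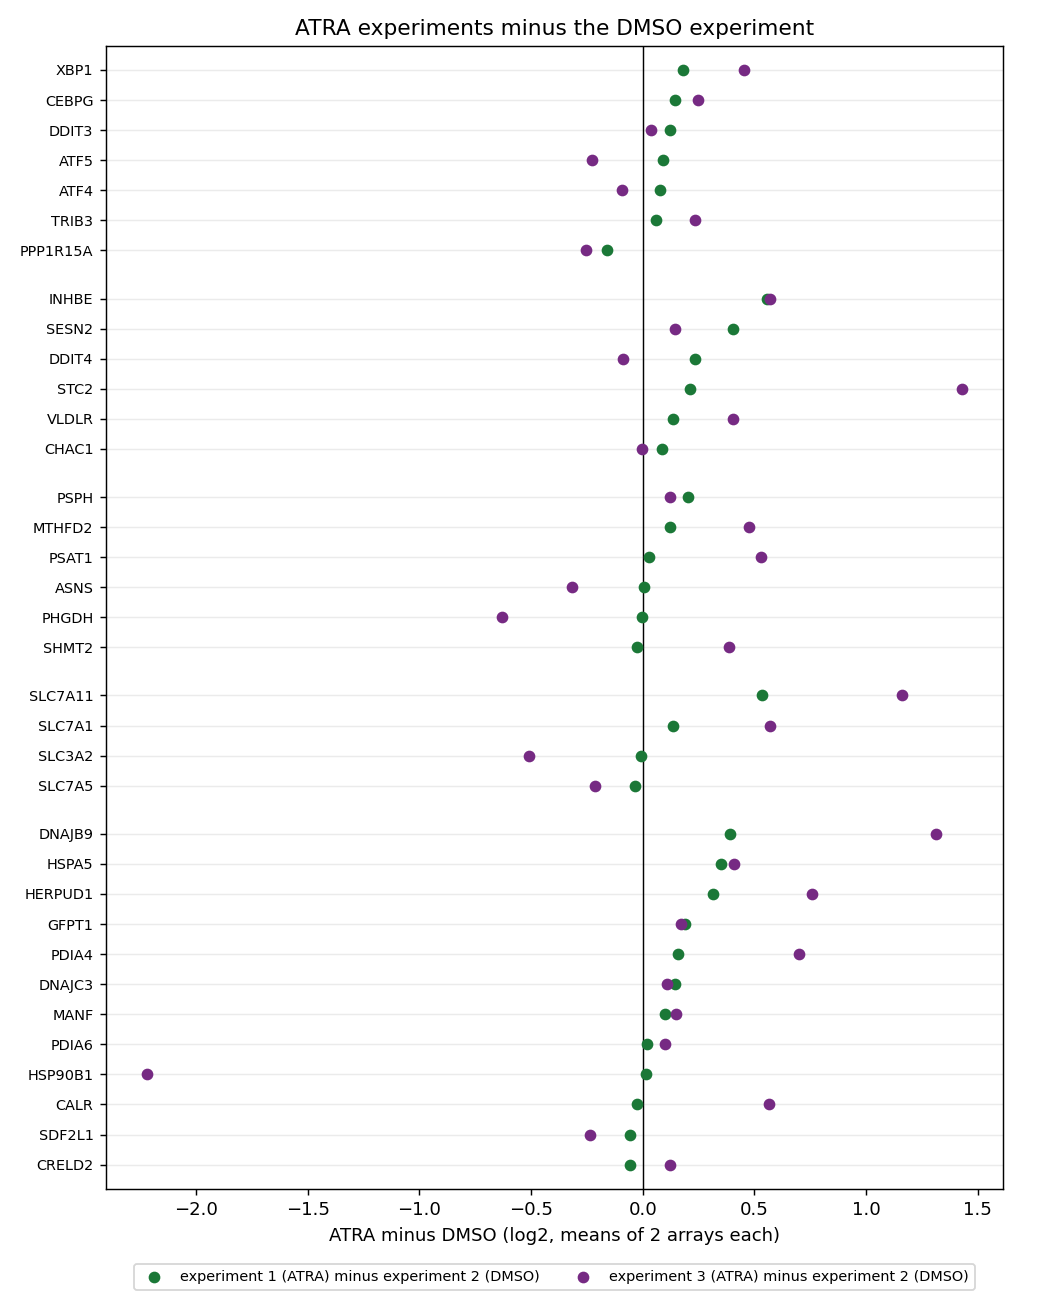
Difference in log2 expression of each ATRA experiment from the DMSO experiment (horizontal axis), each value a mean of 2 arrays minus a mean of 2 arrays; both colours share the arrays of experiment 2. Most points of experiment 1 lie between 0 and 0.6, with INHBE at 0.56 and SLC7A11 at 0.53. Those of experiment 3 spread from -2.22 for HSP90B1, on the probe set used, to 1.43 for STC2.

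Because experiment 3 stood apart in the 3′ to 5′ gaps, experiment 1 was also set against experiment 2 alone, with the 4 arrays as values. There 132 of 19775 genes passed the test (0.668%) and 3 of 35 members (8.57%). All 3 rose: HSPA5 by 0.35 ± 0.04 (SE, 1.28-fold, adjusted p = 0.0327), SLC7A11 by 0.53 ± 0.06 (1.45-fold, adjusted p = 0.039) and INHBE by 0.56 ± 0.06 (1.47-fold, adjusted p = 0.0423), all by limma. These p-values compare 2 experiments, since the RNAi and the scrambled array of an experiment are not separate experiments. The actin gaps of these 4 arrays lay between 0.63 and 0.92 and their GAPDH gaps between 0.03 and 0.08.

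In that comparison 27 of 35 members lay above 0, against 46.2% of all genes, and the median was 0.12 against -0.01. Both ATRA arrays lay above both DMSO arrays for 20 members (57.1%, against 20.4% of all genes) and below both for 3 (8.57%, against 22.6%). The difference was over 0.2 for 9 members (25.7%, against 5.68% of genes) and under -0.2 for 0, against 3.29% of genes. By role, all 6 genes of growth restraint and secreted signals lay above 0 (median 0.22), 6 of 7 transcription factors and feedback genes (median 0.09), 9 of 12 folding genes (median 0.12), 4 of 6 enzymes (median 0.02) and 2 of 4 transporters (median 0.06). Besides the called genes, SESN2 was at 0.41, DNAJB9 at 0.39, HERPUD1 at 0.32, DDIT4 at 0.23, STC2 at 0.21, PSPH at 0.20 and GFPT1 at 0.19, with adjusted p-values by limma from 0.0682 for SESN2 to 0.271 for STC2. Of the other enzymes MTHFD2 was at 0.12, PSAT1 at 0.03, ASNS at 0.01, PHGDH at 0.00 at these digits and SHMT2 at -0.02.

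The second probe set of HSPA5 gave 0.18, against 0.35 on the one that was called. The others of DNAJB9 gave 0.38 and 0.60, and those of SLC7A11 gave 0.58 and -0.01. STC2 went the other way on its second probe set, at -0.15 against 0.21 on the one used. Of the 20 members with at least 2 probe sets at or above the median of all, 12 had the same sign on all of them and 8 had mixed signs. Since these are bulk samples, fewer cells of a type and less RNA per cell cannot be told apart.

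Whether the RNAi difference itself depended on the treatment was tested as the RNAi minus scrambled difference under ATRA less that under DMSO. In this test 0 of 35 members and 0 of 19775 genes (0%) passed by limma, with 0 members and 1.32% of genes at an unadjusted p under 0.05. The value lay above 0 for 20 members (57.1%), against 51% of all genes. With the experiment as a block 1 member, DDIT4, and 3.31% of genes had an unadjusted p under 0.05. DDIT4 was at -0.30 in both fits, with a 95% interval of -0.59 to -0.01 and an adjusted p of 0.998 by limma with the block, and an interval of -1.33 to 0.74 and an adjusted p of 1 without it. DDIT3 was at -0.28, with an interval of -0.58 to 0.02 with the block and -1.02 to 0.46 without it. PPP1R15A was at 0.15, HSPA5 at 0.15, PSPH at 0.21 and GFPT1 at -0.18, all with an adjusted p of 1 by limma, and GFPT1 was at 0.02 without experiment 3 and -0.39 without experiment 1. With the mean of all probe sets of a gene PPP1R15A was at 0.06, HSPA5 at 0.08 and PSPH at 0.06. Without experiment 3 DDIT3 was at -0.18, DDIT4 at -0.20 and PSPH at 0.13. Each DMSO group is a single array.

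Experiments 3 and 1 carried the same treatment, and their difference gives how far the measured levels of the stress genes lay apart. It does not separate expression from RNA integrity and labelling. The median absolute difference was 0.27 over the members and 0.13 over all genes. Of the 35 members 21 (60%) passed the test, 13 higher and 8 lower in experiment 3, against 32.7% of all genes by limma (21% higher and 11.7% lower). At an unadjusted p under 0.05, 24 members and 39.4% of genes were called. The value lay above 0 for 19 members and for 53% of genes. The absolute difference was over 0.5 for 9 members (25.7%) and for 11.7% of genes. The larger 3′ to 5′ gaps of experiment 3 move with all of these values, and their part in them was not tested.

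Folding genes went both ways. HSP90B1, which encodes the chaperone GRP94, had 7.88 and 7.97 on the RNAi and scrambled arrays of experiment 3, against 10.16 and 10.15 in experiment 1. The arrays of experiment 3 lay below all others, and the gene fell by 2.23 ± 0.06 on the log2 scale (SE, adjusted p = 1.08e-08, limma). A second probe set of HSP90B1 gave -1.53. Another 2 probe sets carry the symbols of both HSP90B1 and MIR3652 and were not used. Of these, 1 gave -3.57 and the other 0.46. Both were brighter in experiment 1 than the probe set used, at 11.94 and 11.95 and at 12.02 and 12.01 (RNAi, then scrambled). Probe sets annotated to this gene thus differed in sign, and the fall does not hold for all of them. DNAJB9 had 9.40 and 9.25 in experiment 3, against 8.47 and 8.34 in experiment 1, and rose by 0.92 ± 0.07 (adjusted p = 3.4e-06, limma). CALR rose by 0.59 ± 0.07 (adjusted p = 5.62e-05, limma), PDIA4 by 0.54 and HERPUD1 by 0.44, and SDF2L1, a component of a chaperone complex, fell by 0.18. HSPA5 was at 0.06 and did not pass (adjusted p = 0.545, limma), and MANF, a secreted folding factor, DNAJC3, a BiP cochaperone, PDIA6, CRELD2 and GFPT1 did not pass either.

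Among secreted and growth genes STC2 had 7.32 and 7.22 in experiment 3, against 6.01 and 6.10 in experiment 1, and rose by 1.22 ± 0.09 (adjusted p = 3.03e-06, limma). DDIT4 fell by 0.32 and SESN2 by 0.26, and INHBE was at 0.01 (95% interval -0.15 to 0.18). Enzymes and transporters split. PHGDH had 8.83 and 9.02 in experiment 3, against 9.51 and 9.59 in experiment 1, and fell by 0.63 ± 0.07 (adjusted p = 3.63e-05, limma). ASNS fell by 0.33 and SLC3A2 by 0.50. In contrast SLC7A11 rose by 0.63 ± 0.07 (adjusted p = 3.77e-05, limma), PSAT1 by 0.50, SLC7A1 by 0.44, SHMT2 by 0.41 and MTHFD2 by 0.35, and the dim VLDLR by 0.27. Of the factors, XBP1 rose by 0.28 and TRIB3 by 0.18, ATF5 fell by 0.32, and ATF4 was at -0.17 and did not pass (adjusted p = 0.0696, limma).

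Values of different probe sets of 1 gene spread widely here. Over the 20 members with at least 2 probe sets at or above the median of all, the median range between probe sets of a gene was 0.59 and the widest 1.21, for CALR. The median range was 0.34 in ATRA less DMSO, 0.11 in the RNAi difference and 0.09 in experiment 1 less experiment 2. Mixed signs did not follow that order, with 9 members here, 11 in ATRA less DMSO, 12 in the RNAi difference and 8 in experiment 1 less experiment 2. PSAT1 was at -0.47 on its other probe set and SLC7A1 at -0.68, -0.29 and -0.16 on its others, opposite to the values above. TRIB3 was at -0.45 on its other probe set, also opposite. The other probe sets of CALR were at 0.97 and -0.24 and those of SHMT2 at -0.11 and 0.46. SESN2 was at -1.04 on its second, against -0.26 on the one used. The 2 other probe sets of SLC7A11 were at -0.01 and 0.01, and the mean of its probe sets gave 0.21, while both probe sets of PDIA4 gave 0.54.

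**Figure D4:**
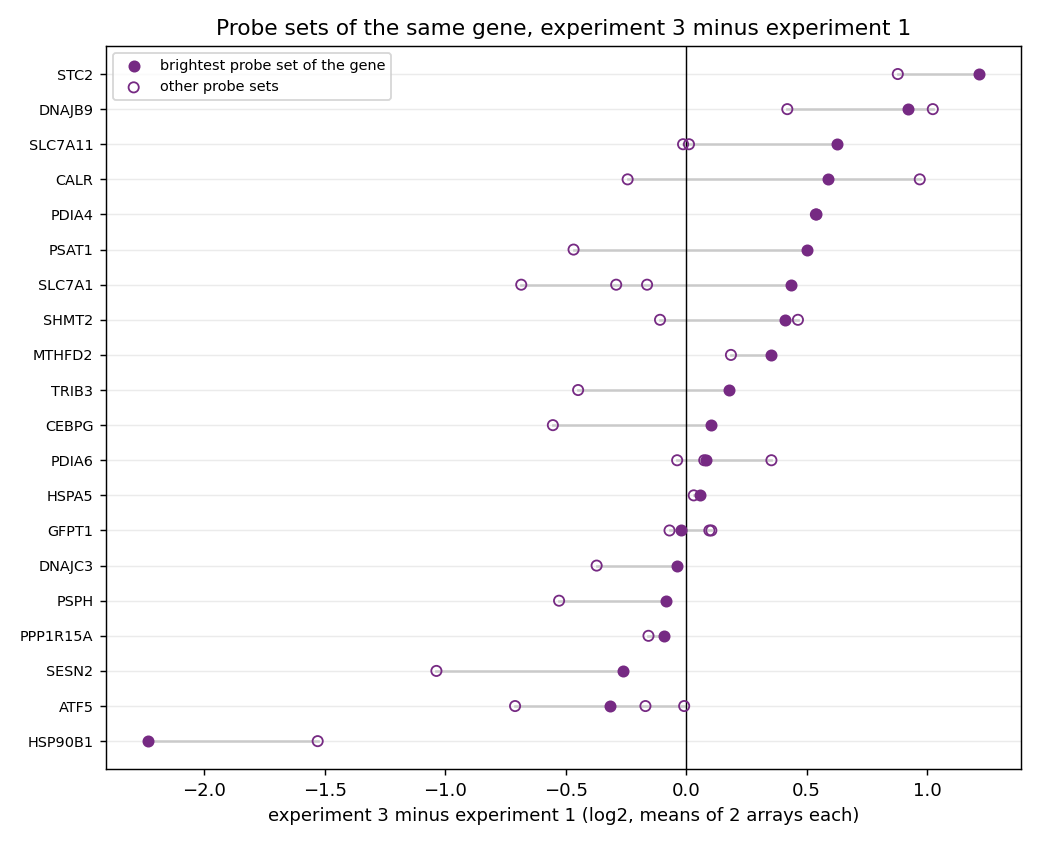
Experiment 3 minus experiment 1 in log2 expression (horizontal axis) for the 20 genes with at least 2 probe sets at or above the median of all; filled points are the brightest probe set, used for the gene, open points the others, and a grey line joins them. Values of 1 gene spread by up to 1.21, for CALR, and 9 of the 20 genes have points on both sides of 0.

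Genes beyond the members were counted in 4 lists. The first held 19 sensors, kinases and factors of the same pathways, and the second 17 aminoacyl-tRNA synthetases. The third, called the amino acid list, held 23 genes, mostly of amino acid synthesis, transport and one-carbon metabolism. Outside these classes it held XPOT, GDF15, FGF21, VEGFA, EIF4EBP1, CLIC4, AKNA and NUPR1, which the first list also held. The fourth held 35 further genes of endoplasmic reticulum folding, degradation and transport. With RNAi, none of these genes passed the test by limma, and at an unadjusted p under 0.05 none did either. Means lay above 0 for 7 of 19, 11 of 17, 10 of 23 and 23 of 35, against 52.9% of all genes. Under ATRA none passed by limma, and 15 of 19, 15 of 17, 12 of 23 and 22 of 35 lay above DMSO, against 47.8% of all genes. The medians were 0.14, 0.16, 0.02 and 0.11, against -0.01 over all genes. The difference of RNAi effects called none either. In experiment 1 less experiment 2 alone 16 of 19, 11 of 17, 11 of 23 and 25 of 35 lay above 0, against 46.2% of all genes, and none passed. The medians there were 0.13, 0.04, -0.002 and 0.06.

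ERO1B, an oxidase that drives disulfide formation, had 7.44 and 7.49 in experiment 1 and 7.59 and 7.87 in experiment 3 under ATRA, against 6.88 and 7.07 under DMSO. All 4 ATRA arrays lay above both DMSO arrays, and the difference was 0.62 ± 0.21 (SE, unadjusted p = 0.0419, adjusted p = 0.995 by limma). EIF2AK3, the eIF2 kinase PERK, was at 0.51, and EDEM1 and EDEM3, which mark glycoproteins for degradation, were both at 0.52. MBTPS1, the protease that cleaves ATF6, was at 0.54. Experiment 1 less experiment 2 gave 0.31 for EIF2AK3, 0.39 for EDEM1, 0.32 for EDEM3 and 0.21 for MBTPS1. Experiment 3 less experiment 2 gave 0.71, 0.64, 0.72 and 0.87 in the same order. The adjusted p of each gene under ATRA was 0.995 by limma. The transcription regulator NUPR1, a known ATF4 target, went the other way at -0.29, with -0.21 in experiment 1 and -0.38 in experiment 3. Between experiments 3 and 1, 9 genes of the first list rose and 4 fell, 12 and 1 of the synthetases, 7 and 6 of the amino acid list and 15 and 7 of the endoplasmic reticulum list, beside 21% of all genes higher and 11.7% lower. Of the amino acid list, GDF15, a secreted stress hormone, was at -1.12 and the proline synthesis enzyme ALDH18A1 at 0.91.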

How the data were processed

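Total RNA of 6 K562 samples was prepared with the 3′ IVT Express kit, per the labels' protocols. The deposited values are log2 expression, made by the authors with RMA (BRB-ArrayTools, as the series' design text says), with settings not given in the sources used here. RMA scales the arrays to each other, so a shift common to all genes is not seen. The number of arrays limits the precision.

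Of 54675 probe sets, 62 were controls; the platform annotation gave 41091 a single gene and 1801 several genes, and 11721 were not listed. Probe sets with several genes named none. The 19775 genes were read from their brightest probe set by mean over 6 arrays, and 0 symbols needed updating. Tests used limma 3.58.1 in R 4.3.3 (eBayes with an intensity trend, Benjamini-Hochberg over all genes, threshold 0.05). RNAi was tested with treatment as a covariate, ATRA on experiment means, the difference of RNAi effects in a fit of 4 groups, and experiments 3 and 1 with RNAi as a covariate. The fits were also run on simulated data with noise independent between arrays. Variation between experiments was not simulated, so that check does not cover it. Counting and drawing used Python 3.11.15 with pandas 2.3.3 and matplotlib 3.10.9.

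The experiment numbers pair the arrays: the labels speak of independent experiments, and arrays that share a number deviated together (r = 0.679, 0.795 and 0.883 for experiments 1, 2 and 3, against -0.796 to 0.534 for arrays of unlike number). Nothing says that the 2 arrays of an experiment came from separate cultures beyond the nucleofection, so p-values between experiments measure only the spread between these arrays. Members and lists were chosen with earlier results of these data known. All 35 members are described; the rule took the 6 with the smallest p in each comparison among members that are not dim, and those past the threshold in any fit, which are named with their values, and up to 3 genes of each other list by smallest p. The alternatives tried were other probe set rules, a filter on dim genes, quantile normalization, no trend, other blocks and left-out arrays.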

Additional observations from a re-analysis of the deposited data

How the results depend on the processing

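The count of members past the threshold with RNAi was 0 under every alternative run. With the experiment as a replicate block, 5 genes passed, and 1, 1 and 2 without experiments 1, 2 and 3; the design without the block and without experiment 3 gave 2. With left-out arrays, the ATF5 difference ran from -0.0068 to 0.28. For ATRA, the random block gave 2 genes. Experiment 1 against experiment 2 alone gave 132 genes (0.668%) with 3 members (8.57%). Experiment 3, with its larger 3′ to 5′ gaps, against experiment 2 alone gave 6777 genes (34.3%) with 23 members (65.7%). These fits treat the arrays of an experiment as replicates. In the difference of RNAi effects, GFPT1 was at 0.036 with the mean of all its probe sets, against -0.18. The block changed no other call. The cause of these shifts was not tested. Other counts of members above 0 and of calls stayed within 1.5 times. Precision is limited by 3 experiments and by the single DMSO experiment.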
